A study of Mus musculus with 12 samples.

Results

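Hmox1, Nqo1, Srxn1, Txnrd1, Gclm, Sqstm1, Prdx1, Fth1 and Ftl1 are genes of the oxidative stress response and of iron storage. They were described in microglia and other myeloid cells sorted from mouse brains that had been taken apart in 4 ways. These 9 genes, of 31053 genes listed, were picked by symbol, with earlier results of these data known. None of the 7 that could be tested passed the test for a difference between preparations, although Ftl1 was lower in all 3 ENZ-INHIB libraries than in the other 9. Some group stood apart from the other 9 libraries in this way, in either direction, in 5.43% of all tested genes. Cells carrying macrophage markers held more Hmox1, Prdx1, Fth1 and Ftl1 than cells without them in the same libraries, where 4.7% of all tested genes were called higher. Fth1 differed between the batches by adjusted p alone, as did 3.45% of all tested genes, and stayed under the fold threshold.

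Cells meet excess oxidants and reactive compounds with a shared set of enzymes. The transcription factor NRF2 (gene Nfe2l2) is held down by its partner KEAP1 and, when released, switches on genes through short promoter sequences called antioxidant response elements, where BACH1 acts as a repressor. Hmox1 encodes heme oxygenase, which breaks heme into biliverdin, carbon monoxide and free iron, and ferritin, built of the heavy and light chains encoded by Fth1 and Ftl1, stores iron safely. Microglia, the resident macrophages of the brain, take up debris and red cell remains and so handle heme and iron. The study asked how the way a brain is taken apart alters what is measured in these cells.

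Cells positive for CD45 and CD11b were sorted from whole brain of male C57BL/6J mice at postnatal day 90, 12 animals with 1 library each. DNC-NONE was cold Dounce homogenization, a mechanical method, without inhibitors, and DNC-INHIB was the same with inhibitors of transcription and translation (actinomycin D, triptolide and anisomycin). ENZ-NONE was enzymatic digestion at warm temperature without inhibitors, and ENZ-INHIB was the same with the inhibitors. Each group had 3 libraries, numbered 1 to 3 in DNC-NONE and ENZ-INHIB and 4 to 6 in DNC-INHIB and ENZ-NONE, and values below are given in that order. The labels also name 2 batches. Replicates 1 and 2 of DNC-NONE, 4 of DNC-INHIB, 4 and 5 of ENZ-NONE and 1 of ENZ-INHIB formed batch 1, and the remaining 6 libraries batch 2. All animals were of a single strain, sex and age, so the values speak for those mice alone.

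After cell filters 18827 of 28426 deposited cells were kept, between 854 and 2185 per library, with 1061021 to 3233159 molecules per library counted as unique molecular identifiers (UMIs). Median depth was 1153 to 1572 UMIs per cell. All 8 microglial markers were detected in each library and summed to 31429 to 36484 CPM, the UMIs of a gene in 1000000 UMIs. Border macrophage markers summed to 71.0 to 366 CPM, monocyte markers to 32.4 to 321 CPM, dendritic cell markers to 3.91 to 85.6 CPM and neutrophil markers to 0 to 3933 CPM, the last highest in DNC-NONE replicate 3. Neuronal and red cell markers stayed at or under 10.4 and 2.34 CPM. Astrocyte markers summed to 147 to 247 CPM, those of oligodendrocytes to 114 to 173 CPM and those of endothelium to 23.8 to 47.1 CPM. Libraries shared 236 kept barcodes, at most 12 between any pair.

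The 9 genes took 181149 of the kept UMIs, between 0.562% and 0.753% of each library. The ferritin chains dominated: Ftl1 gave 56.0% and Fth1 33.9% of these UMIs, and Prdx1 gave 7.40%. Totals for the others were 2052 UMIs for Sqstm1, 1065 for Hmox1, 998 for Gclm, 649 for Txnrd1, 68 for Srxn1 and 4 for Nqo1. The kit tags each molecule at its 3′ end, so a count is not scaled by transcript length, and these shares are of captured molecules. Ftl1 was found in 97.8% of kept cells and Fth1 in 90.3%, against 46.2% for Prdx1, 10.0% for Sqstm1, 5.20% for Hmox1, 4.97% for Gclm and 3.30% for Txnrd1. The sort held no cell type known to lack these genes, so the part of such shares that free RNA in droplets gives was not tested.

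How far the libraries differed depended on the gene. The coefficient of variation of Fth1 over the 12 libraries was 13.4% where counting alone gives 1.40%, and that of Ftl1 was 9.45% against 1.09%. For Hmox1 it was 32.1% against 10.6%, and for Prdx1 8.75% against 2.99%. Sqstm1, at 8.68% against 7.65%, varied little more than its counts do. Txnrd1 (18.0% against 13.6%) and Gclm (16.8%) lay between.

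Hmox1, the heme-degrading enzyme, lies at chr8:75093621-75100589 (GRCm38, plus strand). It stood at 33.6, 33.9 and 27.8 CPM in DNC-NONE, and at 33.8, 44.1 and 44.5 CPM in DNC-INHIB. ENZ-NONE gave 45.5, 24.7 and 67.8 CPM and ENZ-INHIB 23.2, 32.8 and 43.7 CPM. ENZ-NONE thus held both a library near the bottom of the range and the highest of all, and its SD of 21.5 CPM about a mean of 46.0 (n = 3) was the widest of the 4 groups. The remaining means were 40.8 ± 6.09 in DNC-INHIB, 33.2 ± 10.3 in ENZ-INHIB and 31.8 ± 3.48 CPM in DNC-NONE (SD, n = 3), and each group overlapped its neighbour in that order.

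With each cell reduced at random to 1000 UMIs, Hmox1 was found in 2.71% ± 0.499 of DNC-NONE, 4.18% ± 0.542 of DNC-INHIB, 4.30% ± 1.96 of ENZ-NONE and 3.01% ± 0.996 of ENZ-INHIB cells (SD, n = 3). ENZ-NONE replicate 6 stood highest, with 109 positive cells and a share of 6.24% (exact Clopper-Pearson 95% interval 5.15 to 7.47, counting error only), and its interval did not meet the 1.52 to 3.39% of ENZ-NONE replicate 5. Without that reduction the same library had 9.61% positive cells and the lowest, ENZ-INHIB replicate 1, had 2.94%. No cell held more than 4 Hmox1 UMIs.

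**Figure D1:**
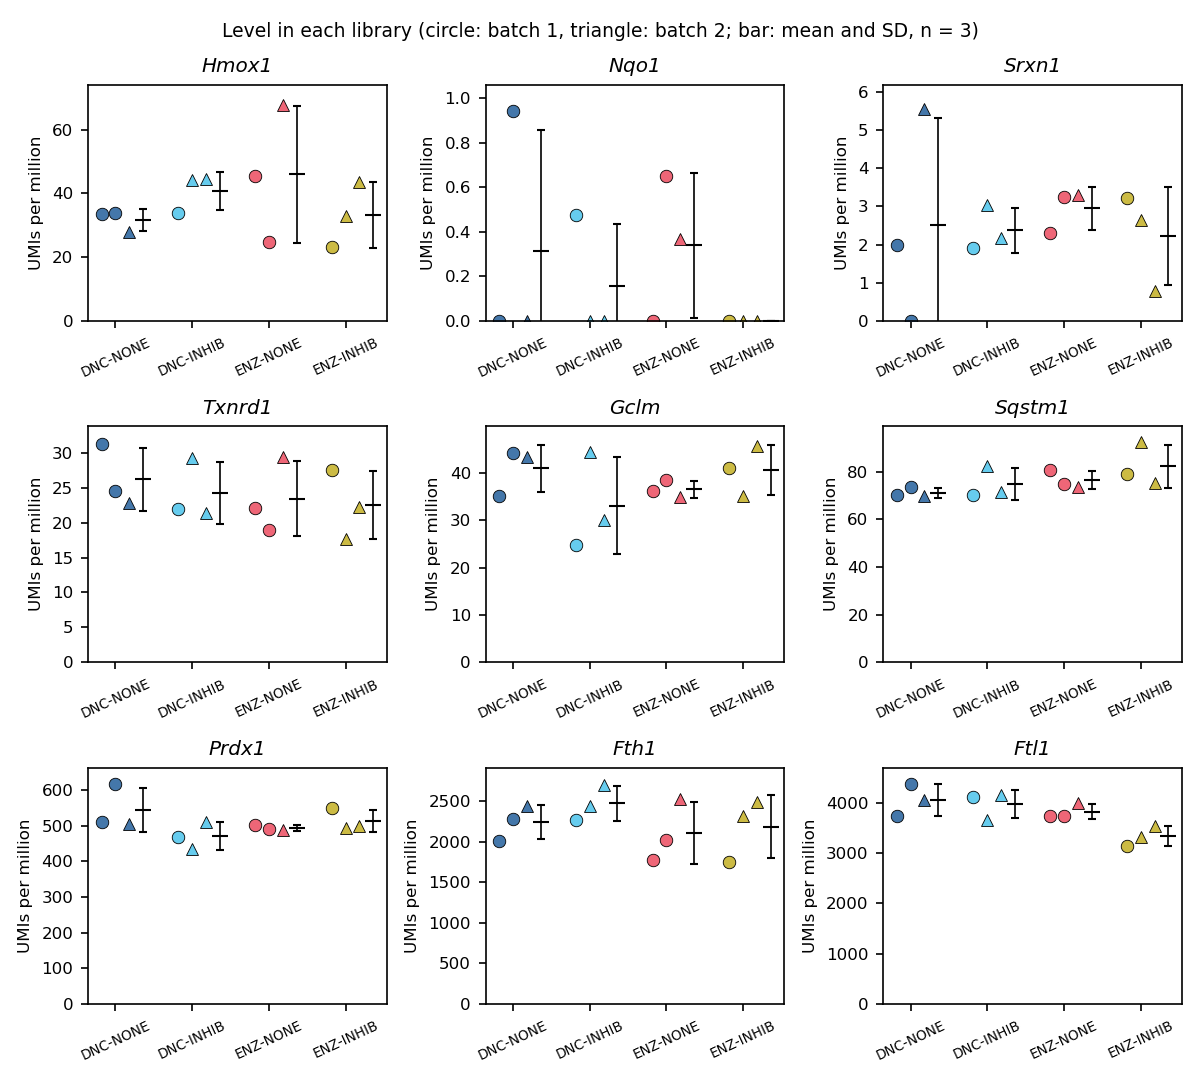
CPM (y axis, linear, from 0) of each of the 9 genes by preparation (x axis), 1 marker per library with circles for batch 1 and triangles for batch 2, and the mean with its SD (n = 3) as bars. Fth1 separated by marker shape, 1746 to 2279 CPM in batch 1 and 2321 to 2702 in batch 2, while in Ftl1 the 3 ENZ-INHIB libraries, at 3149 to 3546 CPM, lay under the other 9.

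Nqo1 and Srxn1 were close to undetected. Nqo1, a quinone reductase often used as an NRF2 readout (chr8:107388225-107403206, minus strand), gave 1 UMI in DNC-NONE, 1 in DNC-INHIB, 2 in ENZ-NONE and 0 in ENZ-INHIB. The 0 of 7075100 UMIs in ENZ-INHIB has an exact Poisson 95% upper bound of 0.521 CPM over the group. The level that 3 counts would give is 0.424 CPM, and no fold was formed. Srxn1, sulfiredoxin, which repairs overoxidized peroxiredoxins (chr2:152105516-152111376, plus strand), had 5, 0 and 10 UMIs in the DNC-NONE libraries and 4, 8 and 7 in those of DNC-INHIB. ENZ-NONE gave 5, 5 and 9 and ENZ-INHIB 6, 7 and 2 UMIs. Pooled over each group this is 2.80 CPM (exact Poisson 95% interval 1.57 to 4.61), 2.38 (1.44 to 3.72), 2.95 (1.78 to 4.60) and 2.12 (1.19 to 3.50), in the same order. These Srxn1 intervals cover counting error only, not the spread between animals. All 4 intervals overlapped, which is no test of a difference, and at these counts none was read.

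Txnrd1, thioredoxin reductase, keeps thioredoxin reduced (chr10:82833951-82897712, plus strand). DNC-NONE gave 31.2, 24.5 and 22.8 CPM, DNC-INHIB 21.9, 29.3 and 21.3, ENZ-NONE 22.0, 18.9 and 29.3, and ENZ-INHIB 27.5, 17.7 and 22.2 CPM. Gclm, the modifier subunit of the enzyme that starts glutathione synthesis (chr3:122245557-122270732, plus strand), stood at 35.2, 44.3 and 43.3 CPM in the same DNC-NONE libraries, at 24.7, 44.5 and 30.0 in DNC-INHIB, at 36.3, 38.4 and 34.8 in ENZ-NONE and at 40.9, 35.1 and 45.6 CPM in ENZ-INHIB. In both genes the groups overlapped throughout. Thinned shares ran from 1.25% to 2.97% of cells for Txnrd1 and from 2.40% to 4.91% for Gclm. Txnrd1 overlaps Eid3 and Gclm overlaps Gm6061 on the same strand, and further genes on the other strand, so their counts carry that uncertainty.

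Prdx1, a peroxiredoxin that removes hydrogen peroxide (chr4:116685544-116700822, plus strand), was the most abundant of the enzymes. The DNC-NONE libraries gave 511, 616 and 504 CPM, and those of DNC-INHIB 469, 434 and 512. The ENZ-NONE libraries gave 502, 490 and 488 CPM and those of ENZ-INHIB 550, 494 and 498. DNC-NONE replicate 2, the library with the fewest kept cells, was highest. All 3 ENZ-NONE libraries lay under the 3 of DNC-NONE, and in the other 5 pairs the groups overlapped. Such a lack of overlap in either direction was seen between these 2 groups in 12.6% of all 9882 genes tested. After reduction to 1000 UMIs 32.4% to 40.2% of cells held Prdx1.

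Sqstm1 encodes p62, an autophagy receptor that also binds KEAP1 and so feeds back on NRF2 (chr11:50199366-50210827, minus strand, overlapped on the other strand by Mrnip). DNC-NONE gave 70.0, 73.5 and 69.9 CPM, DNC-INHIB 70.4, 82.5 and 71.5, ENZ-NONE 80.8, 74.9 and 73.6, and ENZ-INHIB 79.2, 92.3 and 75.2 CPM. ENZ-INHIB had the highest mean, 82.3 ± 8.96, and DNC-NONE the lowest, 71.2 ± 2.04 (SD, n = 3). The 3 DNC-NONE libraries lay under all 3 of ENZ-INHIB and of ENZ-NONE, but DNC-INHIB overlapped each of them. Between ENZ-INHIB and DNC-NONE 14.7% of all tested genes had no overlap. Thinned shares ran from 6.52% to 8.48%.

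**Figure D2:**
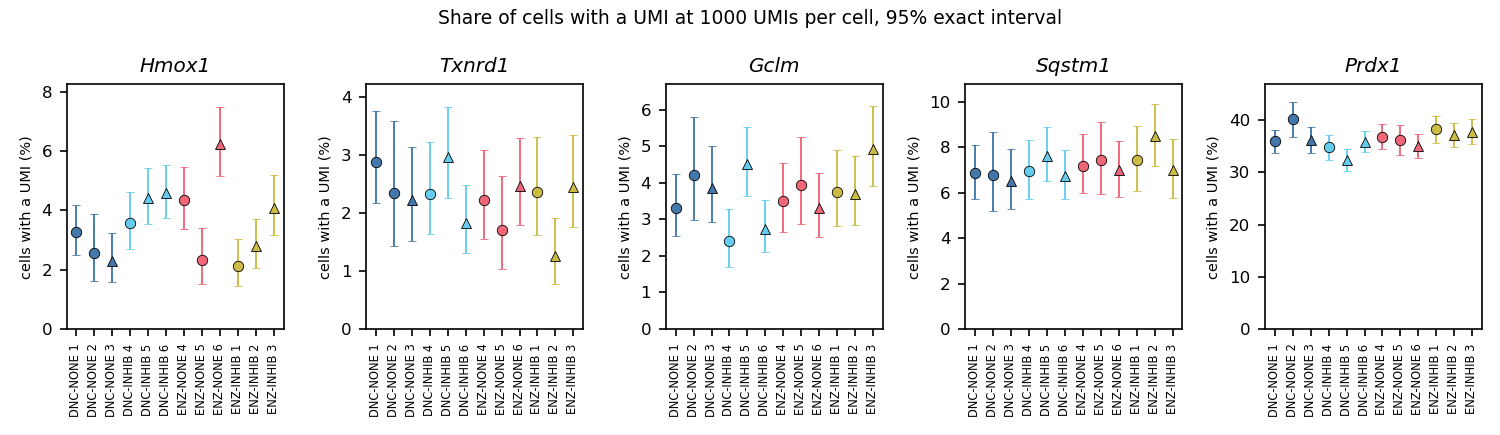
Percent of cells with at least 1 UMI (y axis, linear, from 0) after each kept cell was reduced at random to 1000 UMIs, for 5 of the genes in each library (x axis), with its exact 95% interval and circles for batch 1, triangles for batch 2. Hmox1 ran from 2.13% to 6.24% with ENZ-NONE replicate 6 at the top, and its interval of 5.15 to 7.47 met those of DNC-INHIB replicates 5 and 6, ENZ-NONE replicate 4 and ENZ-INHIB replicate 3.

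The antioxidant response element was searched for in the promoters, because it is the sequence through which NRF2 acts on genes of this kind. RefSeq windows (GRCm38.p6) of 250 bases before to 50 after the start were at hand for 8 of the 9 genes, all but Hmox1. On either strand the letters TGACNNNGC were in 4 of the 11 windows of these genes, 1 each in Srxn1, Txnrd1, Gclm and Prdx1, and in 12.4% of all 32851 windows of that length. The AP-1 site TGANTCA, which FOS and JUN proteins bind, was in 2 of the 11, of Srxn1 and Prdx1, with 2 copies in each, and in 7.81% of all windows. The windows of Nqo1, Sqstm1, Fth1 and Ftl1 held neither set of letters, which says only that these letters are not in these windows. The stretches below show the match in capitals, read on the plus strand, on which the 3 response elements appear as their reverse complement.
Prdx1, chr4:116685457-116685483: agggaaagcGCTGAGTCAtcccccgta
Gclm, chr3:122245414-122245440: ctcccgggcGCACCGTCAactctcacg
Txnrd1, chr10:82859105-82859131: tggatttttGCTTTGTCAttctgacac
Srxn1, AP-1 site, chr2:152105413-152105437: cggagggccTGAGTCAccacgctgt
In Prdx1 the match to the element and an AP-1 site shared their letters. A match is a description of the sequence, not a measured site of binding. The 4 genes with a match stood at very different levels, from 68 UMIs in all for Srxn1 to 13408 for Prdx1.

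Ferritin mRNAs carry a further control. Near the start of each lies a hairpin, the iron response element, at which iron regulatory proteins block translation when iron is scarce, so that iron acts on ferritin protein more than on its mRNA. The loop letters CAGTGN were searched for on the sense strand before the start codon in GENCODE vM21 transcripts (GRCm38). They occurred in 5 of the 9 genes, but a stem with 5 of 5 pairs above a bulged C was found in 2, Fth1 and Ftl1, shown here with the loop in capitals because it sets these genes apart from the rest.
Fth1, chr19:9982732-9982761, plus strand: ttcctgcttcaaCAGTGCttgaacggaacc
Ftl1, chr7:45459778-45459807, minus strand: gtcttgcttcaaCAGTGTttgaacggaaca
Only mRNA was measured, not ferritin protein.

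Fth1, the iron-oxidizing heavy chain (chr19:9980598-9985098, plus strand), stood at 2014, 2279 and 2436 CPM in DNC-NONE and at 2274, 2439 and 2702 CPM in DNC-INHIB. ENZ-NONE gave 1778, 2025 and 2531 CPM and ENZ-INHIB 1746, 2321 and 2485 CPM. The 4 groups overlapped in every pair, and the 2 lowest libraries, 1 in each enzymatic group, belonged to batch 1. Thinned shares ran from 76.9% to 89.8% of cells.

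Ftl1, the light chain (chr7:45457944-45459884, minus strand), stood at 3742, 4372 and 4059 CPM in DNC-NONE and at 4118, 3648 and 4147 CPM in DNC-INHIB. ENZ-NONE gave 3740, 3727 and 3991 CPM and ENZ-INHIB 3149, 3313 and 3546 CPM. All 3 ENZ-INHIB libraries thus lay under the other 9, and the group mean of 3336 ± 200 CPM compared with 3819 ± 149 in ENZ-NONE, 3971 ± 280 in DNC-INHIB and 4058 ± 315 in DNC-NONE (SD, n = 3). Among all tested genes 0.567% had ENZ-INHIB under the other 9 libraries in this way, and 5.43% had some group apart from the rest in either direction, as did 1 of the 7 tested here. By pairs, no overlap was seen in 10.7% of all genes between ENZ-NONE and ENZ-INHIB, in 15.5% between ENZ-INHIB and DNC-INHIB, in 15.3% between ENZ-NONE and DNC-INHIB and in 9.98% between the Dounce groups, and Ftl1 was among those of the first 2 pairs. Within batch 1 the ENZ-INHIB library, at 3149 CPM, was under the other 5 (3727 to 4372), and within batch 2 its 2 libraries, at 3313 and 3546, were under the other 4 (3648 to 4147). This order follows from the separation over all libraries and is no separate evidence.

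Most cells held both chains: 71.0% to 87.2% of cells per library had a UMI of each after thinning, and 0.366% to 2.06% had neither. The ratio of Fth1 to Ftl1 UMIs ran from 0.476 in ENZ-NONE replicate 4 to 0.701 in ENZ-INHIB replicates 2 and 3. Of the 7 non-ferritin genes, 50.4% to 55.9% of thinned cells held none, 36.4% to 43.3% held 1, and 5.30% to 7.48% held 2. Ferritin genes have near-identical copies and reads that fit several genes equally are not counted, so both levels are uncertain on that account. The pseudogene Ftl1-ps1 gave 3057 UMIs beside 101463 of Ftl1, and the copies Fthl17a to Fthl17f gave 0.

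Differences between preparations were tested on UMI sums per library with edgeR's quasi-likelihood test. Adjusted p-values are Benjamini-Hochberg values over all 9882 genes tested. A gene is called at an adjusted p under 0.05 and an absolute log2 fold change over 0.58, the study's own rule. In sums, fewer expressing cells and less RNA per cell cannot be told apart. Nqo1 and Srxn1 were below the low-count filter, which left 7 of the 9 genes.

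None of the 7 was called in any of the 6 pairs of groups, and 4 of 42 tests had an unadjusted p under 0.05. DESeq2 called none either. In ENZ-NONE against DNC-NONE 0.465% of all genes were called, against DNC-INHIB 0.739% and against ENZ-INHIB 0.293%. ENZ-INHIB against DNC-INHIB called 0.202% and against DNC-NONE 0.172%. DNC-NONE against DNC-INHIB called 0% (0 genes by edgeR and 0 by DESeq2, with 436 at an unadjusted p under 0.05), so an absence of calls among 7 genes lies close to what all genes show. The median log2 fold change of the 7 in ENZ-NONE against DNC-NONE was -0.04, beside 0.002 for all genes.

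Hmox1 had the largest difference, 0.65 on the log2 scale in ENZ-NONE against DNC-NONE (SE 0.37, 95% interval -0.17 to 1.48, adjusted p = 0.719, edgeR). That value rested on ENZ-NONE replicate 6: it was 0.22 without that library (adjusted p = 0.883) and 0.91 without ENZ-NONE replicate 5 (adjusted p = 0.166), with adjusted p from 0.166 to 1 over all alternatives. Against ENZ-INHIB the Hmox1 difference was 0.55 and against DNC-INHIB 0.27, and between the Dounce groups it was -0.38 for DNC-NONE against DNC-INHIB. The interval bounds for Hmox1 over the 6 pairs ran from -1.21 to 1.48, but these 2 extremes belong to different pairs. In ENZ-NONE against DNC-NONE a rise well past the fold threshold could not be told from none. A fall of that size lay outside the 95% interval of that pair.

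Bounds were tighter for the other 6 tested genes, among them Txnrd1 and Gclm, which had fewer UMIs than Hmox1. For ENZ-NONE against DNC-NONE the log2 fold change of Sqstm1 was 0.15 (95% interval -0.08 to 0.39), that of Prdx1 -0.09 (-0.28 to 0.10), that of Fth1 -0.04 (-0.42 to 0.34) and that of Ftl1 -0.04 (-0.22 to 0.13). Txnrd1 gave -0.11 (-0.53 to 0.32) and Gclm -0.10 (-0.47 to 0.27). All 6 intervals lay inside the fold threshold.

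Ftl1 had the smallest p of the 7 tested genes. In ENZ-INHIB against DNC-NONE its log2 fold change was -0.27 (95% interval -0.45 to -0.10, unadjusted p = 0.00394, adjusted p = 0.211, edgeR), in ENZ-INHIB against DNC-INHIB -0.24 (adjusted p = 0.346) and in ENZ-NONE against ENZ-INHIB 0.23 (adjusted p = 0.830). These comparisons share the ENZ-INHIB libraries and are not separate evidence. With batch as a covariate the first value became -0.30 with an adjusted p of 0.047, still under the fold threshold. Its adjusted p over all alternatives ran from 0.00815 to 0.510 (edgeR or DESeq2). The lowest came from a fit with the sample number as a block, although that number marks neither an animal nor a batch. Border macrophage markers summed to 124 to 366 CPM in DNC-NONE, 101 to 171 in DNC-INHIB, 71.0 to 165 in ENZ-NONE and 72.1 to 113 in ENZ-INHIB. With cells carrying markers of other myeloid types left out the Ftl1 value was -0.23 (adjusted p = 0.363).

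Whether leaving out the inhibitors acted differently under enzymes than under Dounce was tested as the difference of the 2 inhibitor effects, which called 0.0607% of all genes. None of the 7 was called. Hmox1 gave 0.93 (95% interval -0.21 to 2.06, unadjusted p = 0.0974, adjusted p = 1.00, edgeR), Gclm -0.39, Prdx1 -0.22, Ftl1 0.20, Fth1 0.13, Txnrd1 0.01 and Sqstm1 0.005.

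**Figure D3:**
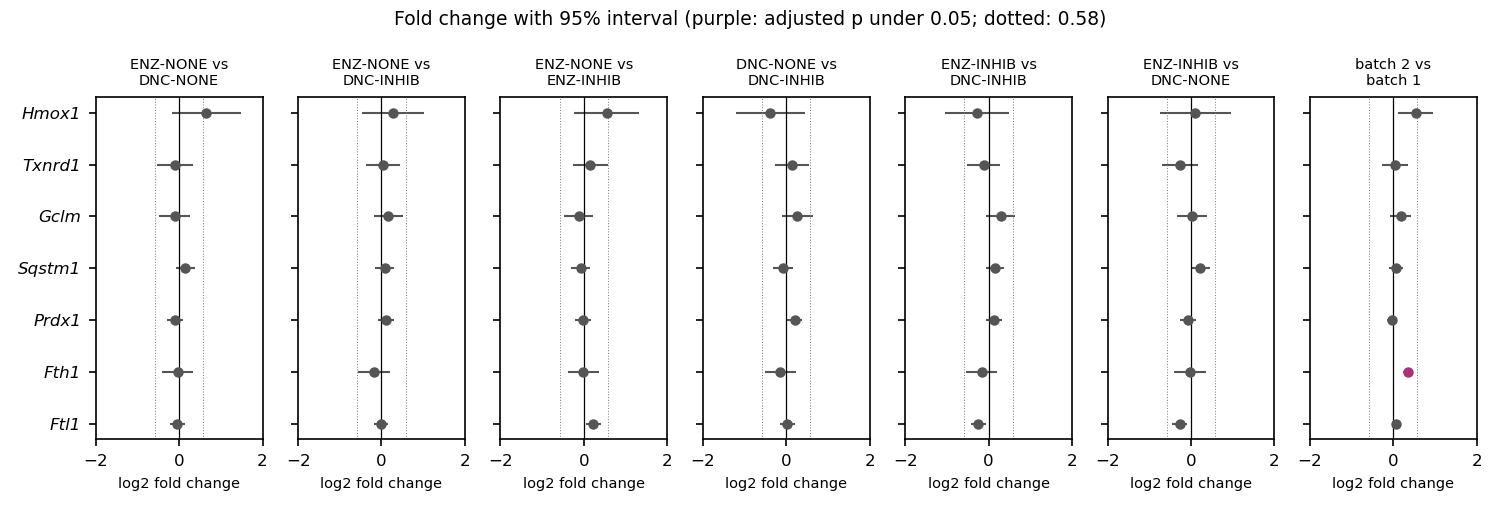
Log2 fold change (x axis) with its 95% interval from edgeR for the 7 tested genes (y axis), for the 6 pairs of preparations and for the batches, with dotted lines at the fold threshold of 0.58 on either side of 0 and purple for an adjusted p under 0.05. Intervals of Hmox1 are the widest, -0.17 to 1.48 in ENZ-NONE against DNC-NONE, and those of Ftl1 in the ENZ-INHIB comparisons leave out 0 while staying inside the threshold.

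None of 57 tested genes from 5 further lists of the pathway was called in any of the 6 pairs, by edgeR or by DESeq2, and 15 of 342 tests had an unadjusted p under 0.05. Of the regulators of NRF2 6 genes were tested, led by Nfe2l2 itself at 249 CPM, Mafg, its DNA-binding partner, at 161, Keap1 at 65.5 and Bach1 at 52.8 CPM. In ENZ-NONE against DNC-NONE Nfe2l2 gave -0.06 and Bach1 0.29 on the log2 scale, and the median of the 6 was -0.01. Of 16 further antioxidant targets Taldo1 (236 CPM) and Tkt (103), enzymes of the pentose phosphate pathway, Esd (94.2), an esterase, and Blvra (74.3), a biliverdin reductase, were highest, and the list median was -0.09. Of 12 genes of peroxide removal Gpx1 (317 CPM), Gpx4 (257), Prdx5 (252) and Prdx2 (124) were highest, with a median of 0.03. For 14 genes of iron handling the median was -0.0004, with Trf, transferrin, at 1574 CPM, the iron chaperones Pcbp1 at 300.2 and Pcbp2 at 299, and Slc40a1, the iron exporter, at 257. For 9 genes of autophagy it was 0.09, with the autophagosome proteins Gabarap at 343, Gabarapl2 at 260 and Map1lc3b at 215 CPM and the receptor Tax1bp1 at 163. The median of all genes in that comparison was 0.002.

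Fth1 separated by batch instead of by preparation. The 6 batch 1 libraries ran from 1746 to 2279 CPM with a median of 2020 and the 6 of batch 2 from 2321 to 2702 with a median of 2462, and they did not overlap, as in 2.08% of all tested genes (117 with batch 2 higher and 89 lower). This was noticed in the values and then tested with batch beside group in the fit. The log2 fold change of batch 2 against batch 1 was 0.35 (SE 0.057, 95% interval 0.23 to 0.47, adjusted p = 5.01e-04, edgeR), under the fold threshold and so not called. It ran from 0.30 to 0.40 over all alternatives, with adjusted p from 5.60e-05 to 0.00626. None of the 7 genes was called, beside 0.233% of all genes, and Fth1 was the 1 of the 7 that passed by adjusted p alone, as did 3.45% of all genes.

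The batches also differed in depth, with median UMIs per cell of 1153 to 1319 in batch 1 and 1200.5 to 1572 in batch 2. At an equal 1000 UMIs per cell, Fth1 gave 1.70 to 2.24 UMIs per cell in batch 1 and 2.31 to 2.69 in batch 2. These values, like CPM, are scaled to total UMIs and so are no separate check, and the part of depth was not tested. Ftl1 did not share the batch gap: its batch difference was 0.08 (95% interval -0.02 to 0.18, adjusted p = 0.527, edgeR). Hmox1 gave 0.53 (0.11 to 0.95, adjusted p = 0.204), and without DNC-NONE replicate 3 it became 0.73 with an adjusted p of 0.00463, which would be called. Its adjusted p over alternatives ran from 0.00463 to 0.511. Gclm gave 0.18, Sqstm1 0.07, Txnrd1 0.04 and Prdx1 -0.04. Of the 57 tested genes of the further lists, 6 passed by adjusted p alone, beside 3.45% of all genes. Prdx6 (0.44), Gpx1 (0.25), Slc11a1 (0.27), Gpx4 (0.20) and Pcbp1 (0.20) were higher in batch 2, and Slc40a1 (-0.26) was lower.

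Over the 12 libraries, the genes whose log2 CPM was most like that of Fth1 included Rps13 (Pearson r = 0.938) and Rpl32 (0.933), which encode ribosomal proteins. Hmox1 was most like Cox7a2 (0.846), Rsrc2 (0.795) and Hspa8 (0.788), Ftl1 like Bri3bp (0.916), Uba2 (0.887) and Fchsd1 (0.868), and Prdx1 like Fut10 (0.881), Lrrc61 (0.880) and D630045J12Rik (0.868). Sqstm1 was most like Arid4a (0.896), A130077B15Rik (0.808) and Rab5b (0.806), Txnrd1 like Txlna (0.902), Rnf149 (0.863) and Clec4a1 (0.856), and Gclm like Atg2b (0.866), Slc25a16 (0.842) and Ilf2 (0.838). These are among the highest of 9882 values each, over points that share batch and depth, and are a description. Among the 7 genes themselves r ran from -0.68 (Sqstm1 with Ftl1) to 0.49 (Hmox1 with Fth1), and the 2 ferritin chains had 0.47.

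Cells carrying macrophage markers were compared with the rest. Kept cells with at least 3 of 8 border macrophage markers (Mrc1, Pf4, Lyve1, F13a1, Ms4a7, Cbr2, Dab2 and Clec4n), 191 cells with 5 to 26 per library, were compared with the 17757 cells that had none, within each library. Of the 191, 54 lay at the limit with exactly 3 markers, and 82 cells just outside it had 2. Median depth per library was 1261.5 to 1721 UMIs per cell in the marker cells and 1144 to 1570 in the others. The 9 genes took no part in choosing the cells.

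Hmox1, Prdx1, Fth1 and Ftl1 were called higher in the marker cells, and none of the 7 tested was called lower, where 23.4% of 5791 genes were called. Of the 5791 tested, 4.7% were called higher (272 genes, with 1082 lower). Hmox1 ran from 42.0 to 292 CPM (median 119) in the marker cells and from 21.0 to 65.6 (median 33.2) in the others. It was higher in 12 of 12 libraries, although on 37 UMIs in all, by 1.48 on the log2 scale (SE 0.31, adjusted p = 1.99e-05, edgeR). The marker cells of DNC-NONE replicate 3, DNC-INHIB replicate 4 and ENZ-INHIB replicates 1 and 2 held only 1 Hmox1 UMI per library. Prdx1 ran from 701 to 1317 CPM (median 881) against 421 to 552 (median 486), which on the log2 scale was 0.81 (SE 0.15, adjusted p = 7.07e-07). For both ferritin chains and Prdx1 the 12 values of the marker cells lay above all 12 of the others, as in 1.62% of all genes tested here.

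Fth1 stood at 4017 to 7584 CPM (median 5653) in the marker cells against 1680 to 2578 (median 2261), higher by 1.20 on the log2 scale (SE 0.13, adjusted p = 9.13e-19, edgeR). Ftl1 stood at 5907 to 10869 CPM (median 9052) against 3012 to 4047 (median 3675), higher by 1.09 (SE 0.13, adjusted p = 1.50e-15). Over all tested genes the median log2 fold change in this comparison was -0.44, and that of the 7 was 0.81, the value of Prdx1 itself. Both medians include genes that passed the low-count filter only through the cells without markers, so they are given as a description. With at least 4 markers asked for, the same 4 genes were called.

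The other 3 tested genes were not called. Gclm had 5 UMIs in the marker cells and Txnrd1 had 4, so both passed the low-count filter only through the cells without markers, and their fitted values of -1.40 (adjusted p = 0.0596, edgeR) and -1.14 (adjusted p = 0.183) on the log2 scale are given as a description. Without any 1 of 3 libraries (DNC-INHIB replicate 6, ENZ-NONE replicate 5 or ENZ-INHIB replicate 2) the adjusted p of Gclm fell under 0.05, with a range of 0.0396 to 0.114 over alternatives, from which nothing is read at 5 UMIs. Sqstm1 gave -0.11 (adjusted p = 0.842). Nqo1 had 0 UMIs and Srxn1 2 in the marker cells.

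**Figure D4:**
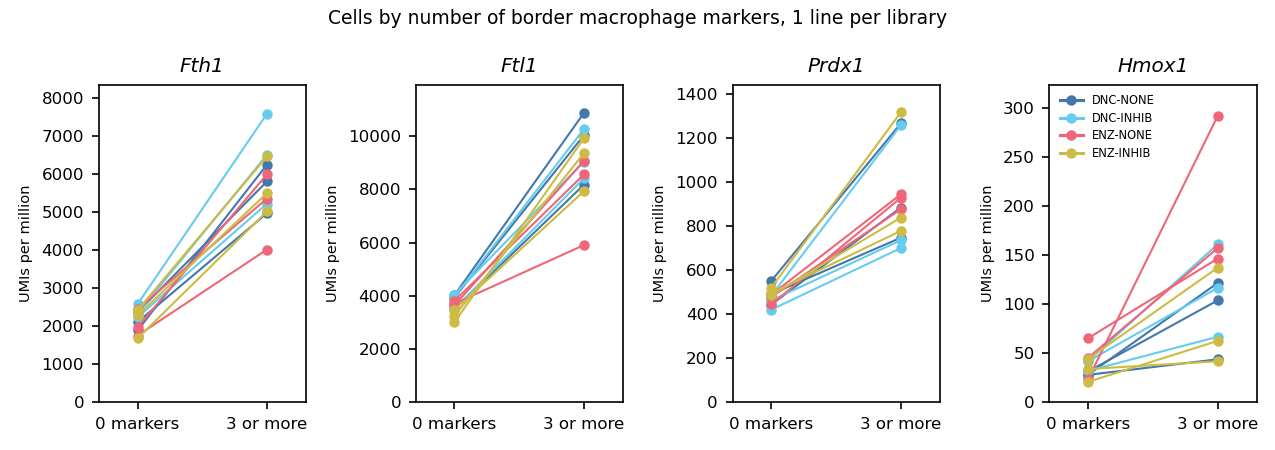
CPM (y axis, linear, from 0) of the 4 called genes in cells with 0 border macrophage markers and in cells with 3 or more (x axis), 1 line per library (n = 12) coloured by preparation. Every line is higher at the marker cells, and the steepest of Hmox1, ENZ-NONE replicate 5 at 292 CPM, rests on 2 UMIs.

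Of 12 tested antioxidant targets on the list, 3 were called higher and 2 lower in the marker cells. Of all 5791 genes tested in this comparison 272 were called higher and 1082 lower, so lower calls in the lists below were common among all genes. Blvrb, a biliverdin and flavin reductase, was higher by 2.07 on the log2 scale (adjusted p = 1.53e-18, edgeR), Blvra by 0.88 (adjusted p = 0.00896) and Slc48a1, a heme transporter, by 0.96 (adjusted p = 0.0195). Gclc (-1.59), which encodes the catalytic partner of Gclm, and Gsr (-2.42), glutathione reductase, were called lower, but on 6 and 2 UMIs in the marker cells, so that both passed the low-count filter through the other cells alone. The list median was 0.12 beside -0.44 for all genes. Of 11 genes of peroxide removal Txn2 (0.72) was called, and of 10 of iron handling Slc40a1, the iron exporter, was called lower (-1.12). Tax1bp1 (-1.25) and Gabarapl2 (-0.77) were called lower among 7 autophagy genes. None of 4 tested regulators of NRF2 was called, though Nfe2l2 gave -0.56 with an adjusted p of 0.0471.

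The last comparison asked whether cells with an active early response differed. In each ENZ-NONE library cells reduced to 1000 UMIs were divided by 10 early genes (Fos, Fosb, Jun, Junb, Egr1, Ier2, Dusp1, Zfp36, Atf3 and Btg2): 1718 cells had at least 3 of them, 1784 had 0 or 1, and 934 with 2 were left out. At least 3 were found in 28.0%, 29.6% and 54.2% of the cells of the 3 ENZ-NONE libraries and in 14.4% of DNC-NONE replicate 1, against 0.896% to 2.61% in the other 8. Hmox1 gave 45.5, 24.2 and 69.7 CPM in the early-gene cells and 54.2, 24.2 and 66.2 CPM in the rest, a log2 fold change of -0.01 (95% interval -0.48 to 0.45, adjusted p = 0.993, edgeR). In ENZ-NONE replicate 6, the library with the most Hmox1 and the most early-gene cells, both classes thus stood above every other value.

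Ftl1 differed slightly between the classes. It stood at 4325, 4281 and 4180 CPM in the early-gene cells and 3487, 3428 and 3536 CPM in the rest, with no overlap, as in 12.5% of 6071 genes tested, a difference of 0.32 on the log2 scale (SE 0.042, 95% interval 0.24 to 0.41, adjusted p = 2.86e-10, edgeR). None of the 7 was called, since this lies under the fold threshold, and 1.4% of 6071 genes were. By adjusted p alone Ftl1 passed, as did 2.19% of all genes. The difference was 0.52 with at least 4 early genes and 0.31 (adjusted p = 1.89e-08) without cells of other myeloid types. Fth1 gave 0.13 (adjusted p = 0.212), Txnrd1 -0.26, Sqstm1 -0.09, Gclm 0.04 and Prdx1 0.01.

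In the other 9 libraries, which had 15 to 264 such cells each and 518 in all, the same comparison gave -0.13 for Ftl1 (adjusted p = 0.912, edgeR), and over all 12 libraries 0.003 (adjusted p = 0.997). In a single fit with an interaction term Ftl1 gave 0.31 in ENZ-NONE and -0.23 in the other 9 (95% interval -0.39 to -0.06), where the -0.13 came from a fit of those 9 alone. The difference between the 2 was 0.53 (95% interval 0.23 to 0.83, unadjusted p = 5.07e-04, adjusted p = 0.0914). It missed the threshold, where 0.435% of 7578 genes passed by adjusted p alone and the median of all genes was 0.16.

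**Figure D5:**
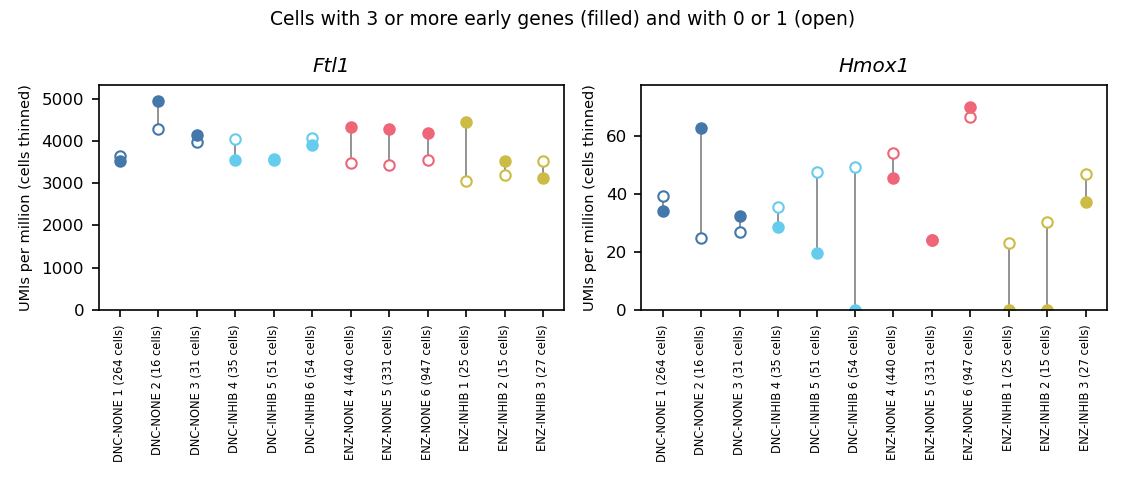
CPM (y axis, linear, from 0) of Ftl1 and Hmox1 in cells with at least 3 early genes (filled) and with 0 or 1 (open), joined for each of the 12 libraries (x axis, with the number of early-gene cells), after reduction to 1000 UMIs per cell. In the 3 ENZ-NONE libraries Ftl1 ran from 4180 to 4325 CPM in filled points and from 3428 to 3536 in open ones, while the other libraries, most with few such cells, lie on either side.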

How the data were processed

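Myeloid cells of 12 mouse brains were profiled with the 10X Genomics 3′ kit (version 2). The authors deposited unnormalized UMI counts for every barcode that Cell Ranger 3.0.0 (mm10, per the submitters' processing notes) called as a cell. Cells under 500 genes or 1000 UMIs, or with over 10% of UMIs from mitochondrial genes, were left out. A marker rule for doublets removed 3 cells, too few to have worked as a caller, so most doublets remain. Counts were summed per library, or per library and cell class, and tested with edgeR 4.0.16 (R 4.3.3) on all 12 libraries, 1 coefficient per group, TMM scaling and a minimum count of 10. Library was a block in the comparisons of cell classes. DESeq2 1.42.0 was an alternative. Cells were thinned with numpy 2.4.6 and a fixed seed. On simulated counts with 200 changed genes the ENZ-NONE against DNC-NONE comparison recovered 97.2% of 4-fold and 73.4% of 2-fold changes among 9777 genes. Replicates differed beyond sampling noise (chi-square per degree of freedom 1.60 to 6.50), so none were merged. Each listed gene that was called is named, and otherwise up to 4 per list by mean CPM. Likeness used log2(CPM + 1), with 3 genes named for each gene tested, except where an item is not reported here. The batch comparison and the interaction term were added after seeing the data. The genes and lists were chosen with earlier results of these data known.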

Additional observations from a re-analysis of the deposited data

How the results depend on the processing

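None of the tested genes of the set was called in the 6 pairs or in the difference of inhibitor effects under any of 130 alternatives, including one without the low-count filter in which all 9 were tested, and at least 4 were called in the macrophage-marker cells under each alternative run. Of 1153 alternative fold changes of these genes 83 changed sign, none of a called value and none ending past 0.23 in size, and 9 of them moved by over 1 SE. Leaving out 1 library at a time gave log2 fold changes of -0.16 to 0.53 for Hmox1 and -0.20 to 0.20 for Txnrd1 in ENZ-NONE against DNC-INHIB, -0.081 to 0.29 for Txnrd1 in ENZ-NONE against ENZ-INHIB, -0.16 to 0.18 for Txnrd1 between batches and -0.21 to 0.11 for Sqstm1 in early-gene cells. The lowest value for Hmox1 and Txnrd1 came without ENZ-NONE replicate 6. Prdx1 in ENZ-INHIB against DNC-NONE became 0.022 over all deposited barcodes. In early-gene cells Fth1 became -0.042 over all 12 libraries and -0.13 over the 9 others, where Ftl1 became -0.13. The cause was not tested.

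Counts of all genes called moved more. Without the low-count filter they were 101 and 137 for ENZ-NONE against DNC-NONE and DNC-INHIB, 54 against ENZ-INHIB, 18 for DNC-NONE against DNC-INHIB, 66 and 102 for ENZ-INHIB against DNC-INHIB and DNC-NONE, and 16 for the difference of inhibitor effects. DNC-NONE against DNC-INHIB gave 1 with batch as a covariate and 1 without cells of other myeloid types. ENZ-INHIB against DNC-INHIB gave 9 by DESeq2, 36 with batch and 33 over all barcodes, ENZ-INHIB against DNC-NONE gave 27 over all barcodes, and the difference gave 18 by DESeq2 and 10 with batch. Early-gene cells gave 38 over 12 libraries and 12 over the 9 others. Leaving out single libraries gave 29 to 67, 46 to 90 and 14 to 39 for ENZ-NONE against the groups in the order above, 0 to 3 for DNC-NONE against DNC-INHIB, 5 to 34 and 1 to 46 for ENZ-INHIB against DNC-INHIB and DNC-NONE, 4 to 10 for the difference and 18 to 36 for the batches, where 0 to 1 genes of the set were called (Hmox1, without DNC-NONE replicate 3).

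The sample numbers shared by ENZ-INHIB and DNC-NONE and by ENZ-NONE and DNC-INHIB were not taken as pairs in the main fit. The correlations of same-numbered deviations were -0.08, -0.06 and 0.02, and 0.11, -0.01 and 0.16. Each library came from its own animal, and the libraries numbered 2, like those numbered 5, lie in different batches. A shared number thus marks neither an animal nor a batch. Values so few cannot exclude a pairing of another kind. With a replicate block, fitted on those groups alone, ENZ-INHIB against DNC-NONE called 90 genes, of the set none, where the main fit called 17. Ftl1 had an adjusted p of 0.00815 with the block and 0.211 in the main fit (edgeR).

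Shares of cells depend on depth. Without thinning 34 of 36 group shares were higher, 30 by over 1 SD, and at 500 UMIs 34 were lower. Nqo1 and Srxn1 could not be tested after the low-count filter, and Hmox1 in macrophage-marker cells rests on 37 UMIs. With 3 animals a group, intervals as wide as that of Hmox1 leave changes past the fold threshold undetected. The part of doublets and free RNA in these levels was not tested.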
